A study of Homo sapiens with 12 samples.

Results

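The RNA on 80S ribosomes was compared between HEK293 cells that express the S38D form and cells that express the wild-type (WT) form of the ribosomal protein RPL12. The comparison rests on 4 of the 12 libraries of the series, 2 S38D and 2 WT libraries, chosen as the input libraries of these lines by their labels. HEK293 is an established human embryonic kidney line. Each line was made in HEK293 Flp-In T-REx cells by integrating a vector for FLAG/HA-tagged RPL12, which the labels describe as overexpressed, and hygromycin selection gave monoclonal colonies. S38D replaces serine 38 by aspartate, which resembles a phosphorylated serine in charge, and in S38A the same serine is replaced by alanine, which cannot be phosphorylated. The lines thus share the cell background, the tag and the medium, and RPL12 form and cell line coincide, so the effect of the form and of the line cannot be told apart. The labels do not describe deletion of the cells' own RPL12 gene. The lysates were fractionated on sucrose gradients in both lines, and the input RNA came from an aliquot of the pooled 80S fraction, before any immunoprecipitation (IP). It therefore holds RNA from all 80S ribosomes, with and without the tagged protein. The same fraction of each library then went into an anti-FLAG IP, and 4 such IP libraries of the WT and S38D lines exist. The 2 S38A input libraries entered the fit to add to the estimate of spread.

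RPL12, also called uL11, sits at the base of the stalk of the large ribosomal subunit, beside the P proteins that recruit elongation factors to the ribosome. The series concerns its phosphorylation and translation in mitosis. An 80S fraction holds single ribosomes, including those on mRNAs that carry just 1, while heavily translated mRNAs are found mainly in polysomes. A change of an mRNA here can follow its amount in the cell or the part of it that carries a single ribosome, and bulk libraries cannot tell these apart, nor more cells with a transcript from more transcript per cell.

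The files give 57820 Ensembl gene identifiers without names, and 0 of them could be paired with a symbol through the reference table. Only 4 identifiers are therefore named, 2 for each direction. The levels of RPL12 itself and of the cell type markers of HEK293 were not analysed here for the same reason. The 6 input libraries held 7434431 to 8723130 gene counts, and the 4 WT and S38D libraries detected 18818 to 19411 identifiers with at least 3 counts. ERCC spike-in RNA, which was added in equal amount to equal amounts of input RNA, took 0.350% and 0.330% of the counts in the S38D libraries. In the WT libraries it took 0.116% and 0.484%, so the WT libraries lay on either side of the S38D libraries. Exact Clopper-Pearson 95% intervals were narrow beside this gap, 0.114% to 0.119% and 0.479% to 0.489% in WT. These intervals cover counting error only.

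Between the S38D and WT inputs 1 transcript passed the test. Of 16728 genes tested, 1 passed in the edgeR quasi-likelihood test at an adjusted p under 0.05, which is 0.00598% of genes, and it was higher in S38D. A fitted change of 2-fold or more was reached by 278 genes, 172 higher and 106 lower, or 1.66% of the genes tested, whether or not they passed. The central 90% of genes lay between log2 changes of -0.44 and 0.51, with a median of -0.01.

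The called gene was ENSG00000082805.15. Levels are given as CPM, a gene's counts relative to its library's total, scaled by the trimmed mean of M-values (TMM) over the 6 inputs. It stood at 404 CPM in S38D replicate 1 and 468 in replicate 2, from 3389 and 3811 counts. In WT it stood at 96.9 and 65.0 CPM, from 816 and 468 counts. Both S38D libraries were thus far above both WT libraries, by 4.17-fold in the closest pair and 7.20-fold in the widest. The S38A inputs, at 89.3 and 104 CPM, lay with WT. The group means were 436 ± 45.6 CPM in S38D and 81.0 ± 22.5 in WT (SD, n = 2 each). The fitted rise was 5.37-fold, a log2 change of 2.43 with SE 0.20 (edgeR adjusted p = 0.0074). Its unadjusted p was 4.45e-07 and the next lowest in the table was 1.10e-04, while by size of log2 change it ranked 22 among all genes.

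**Figure D1:**
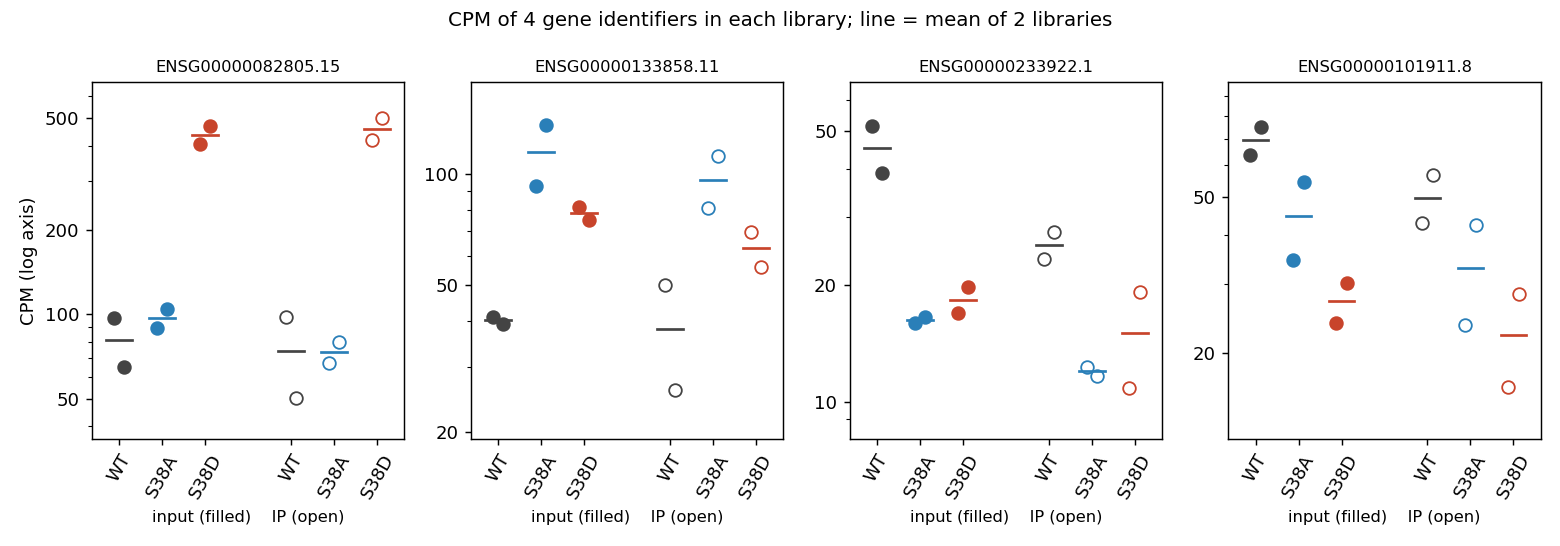
CPM (log axis) of 4 gene identifiers in each library, inputs as filled and IP libraries as open points, with 2 points and a line at their mean for each of the WT, S38A and S38D lines. ENSG00000082805.15 lies above 400 CPM in all 4 S38D libraries and near or below 104 CPM in the other 8, while the other identifiers differ less and did not pass the test.

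The same identifier was high in the other libraries of the S38D line. In the IP libraries it stood at 419 and 500 CPM in S38D, 97.9 and 50.5 in WT, and 67.1 and 79.4 in S38A. The S38D and WT libraries again did not overlap. In a fit of the 6 IP libraries, 1 of 15081 genes passed for S38D versus WT, or 0.00663%, and it was this one (log2 change 2.64, SE 0.30, edgeR adjusted p = 0.011). Input and IP libraries come from the same fractions, so the IP values are no independent replication of the line difference. Against the S38A inputs it was also the 1 gene called, again 0.00598% of those tested, with a log2 change of 2.17 (SE 0.20, edgeR adjusted p = 0.018), and that comparison shares the S38D libraries with the first.

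The log2 change of ENSG00000082805.15 varied less than its call. It ranged from 2.17 to 2.75 over 15 alternative settings that leave out spike-in scaling, and it passed in 10 of them. The call was lost without WT replicate 2 (2.17, edgeR adjusted p = 0.072), without S38A replicate 1 or 2 (adjusted p = 0.061 and 0.058), with only the 4 WT and S38D libraries (0.13) and with the replicate number as a block (0.058). In IP the call was lost without S38D replicate 2 (log2 2.51, adjusted p = 0.14) and with only the 4 WT and S38D IP libraries (0.095). Against S38A it was lost without either S38A input (adjusted p = 0.19 and 0.18).

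**Figure D2:**
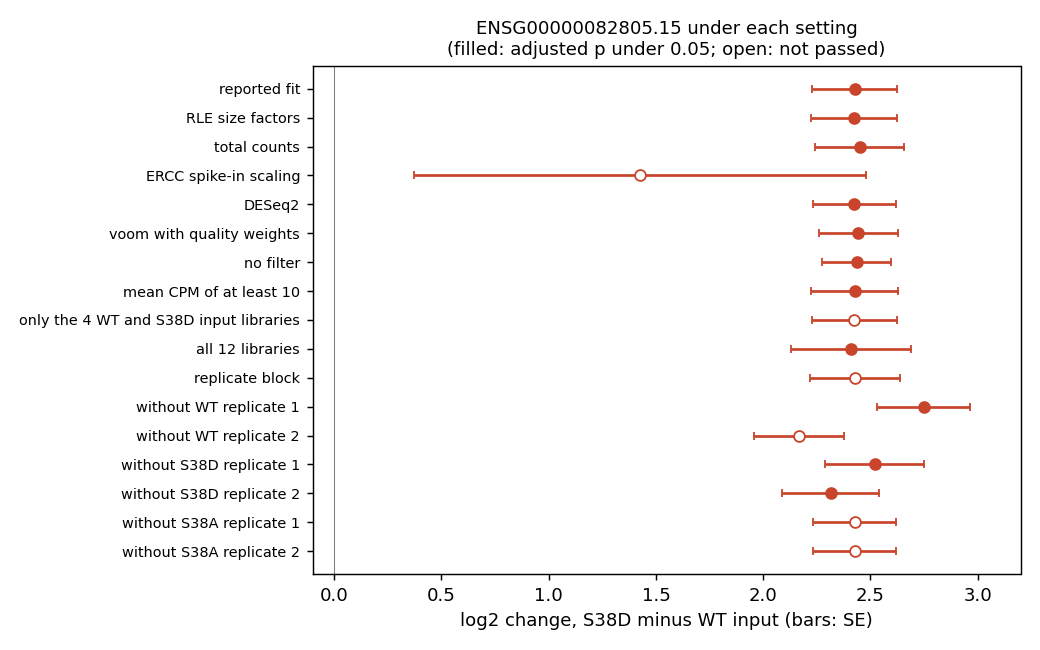
Log2 change of ENSG00000082805.15 between S38D and WT inputs (x axis, bars are SE) in the reported fit and 16 other settings (y axis). Filled points passed at an adjusted p under 0.05 and open points did not. The value stays between 2.17 and 2.75 except with spike-in scaling, where it is 1.43.

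The next gene by p among those higher in S38D was ENSG00000133858.11, which did not pass (edgeR adjusted p = 1.00). It stood at 81.5 and 75.1 CPM in S38D and at 41.0 and 39.3 in WT. Its replicates lay close together in each of these lines, with a log2 difference of 0.96 (SE 0.19). The S38A inputs lay higher still, at 93.0 and 136 CPM, so WT was the lowest line. In IP its values were 69.6 and 56.2 CPM in S38D and 50.2 and 26.1 in WT.

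Among genes lower in S38D, ENSG00000233922.1 had the lowest p and did not pass (edgeR adjusted p = 0.92). It stood at 16.9 and 19.8 CPM in S38D against 51.5 and 38.9 in WT, a log2 difference of -1.30 (SE 0.21). The S38A inputs, at 16.0 and 16.5 CPM, were as low as S38D, so WT was the highest line. In IP it stood at 10.8 and 19.2 CPM in S38D and 23.3 and 27.5 in WT.

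ENSG00000101911.8 stood at 23.9 and 30.2 CPM in S38D and at 63.6 and 75.3 in WT. Its log2 difference was -1.36 (SE 0.23) and it did not pass either (edgeR adjusted p = 1.00). The S38A inputs lay between them, at 34.5 and 54.5 CPM. In IP it stood at 16.4 and 28.2 CPM in S38D and 42.8 and 56.6 in WT. These 3 genes kept their direction in all 16 alternative settings, and each passed in 2, with DESeq2 (adjusted p = 0.017, 0.0033 and 0.00069 in the order given) and in edgeR with no filter on low counts. Over the 15 settings without spike-in scaling their adjusted p ran from 3.19e-05, 3.53e-05 and 2.28e-08 to 1.00.

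**Figure D3:**
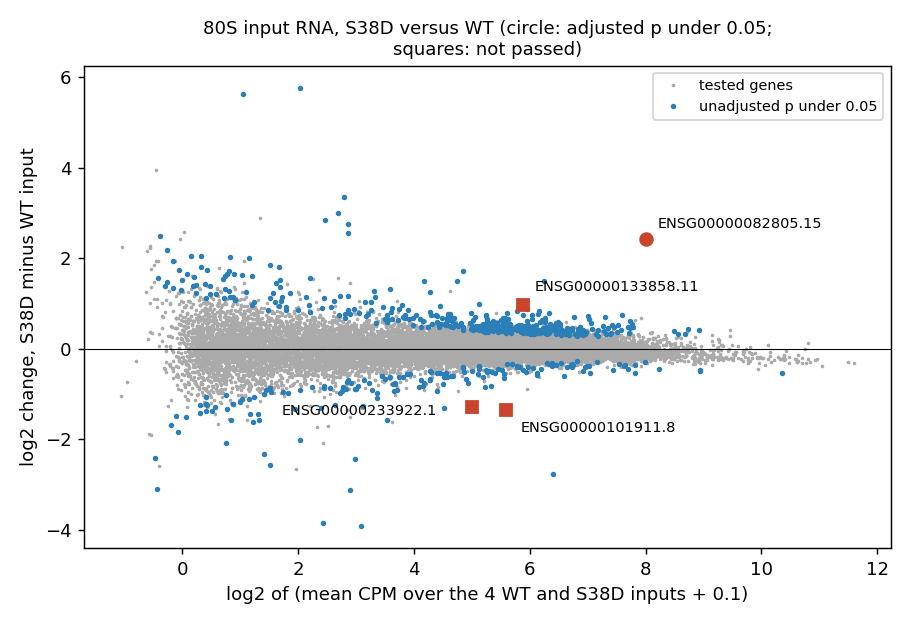
Log2 change between S38D and WT inputs (y axis) against abundance, the log2 of the mean CPM over the 4 libraries plus 0.1 (x axis), with 1 point per gene. The called gene (circle) stands apart from genes of its abundance, the 3 squares did not pass, and most of the largest changes elsewhere are at low abundance.

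Large changes were mostly found where counts were low. Genes were split into abundance quartiles of 4182 by their mean over the 6 inputs. The quartile of lowest abundance held 158 of the 172 genes at least 2-fold higher and 98 of the 106 at least 2-fold lower. None of its genes passed in edgeR. At an unadjusted p under 0.05 it held 139 genes, 79 higher and 60 lower. This was 3.32% of the quartile, the same share as over all genes. Its median SE of a log2 change was 0.46. The quartile of highest abundance had a median SE of 0.14, and there ENSG00000082805.15 was the 1 gene that changed 2-fold or more in either direction. No identifier had 0 counts in both libraries of one line and at least 10 in both of the other, so no transcript was seen in 1 of these lines alone by that rule. Within a line the rule is looser, with 1 library against 1, so its counts are not comparable with those between lines. By it, 25 identifiers had at least 10 counts in WT replicate 1 and 0 in WT replicate 2, with 0 the other way. Between the S38D replicates, 17 were seen so in replicate 1 alone and 8 in replicate 2 alone.

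Differences between the lines were, over all genes, about as large as differences between replicates. Over all genes tested, the log2 difference had an SD of 0.47 between the WT replicates and 0.49 between the S38D replicates. Between a WT and an S38D library it was 0.36, 0.49, 0.49 and 0.50. The smallest of these was between the replicates numbered 1, which had Pearson's r = 0.986 across genes, against 0.978 within WT and 0.976 within S38D. S38D replicate 1 was thus closer to WT replicate 1, and to S38A replicate 1 (SD 0.35), than to S38D replicate 2. Among the WT and S38D libraries, differences of at least 2-fold were also fewest between the replicates numbered 1, with 382 genes. There were 715 between the WT replicates, 768 between the S38D replicates, and 726 to 815 in the other pairs of WT with S38D. Between the replicates numbered 1 of S38A and S38D there were 311. In the quartile of highest abundance the SD was 0.22 between the WT replicates, 0.22 between the S38D replicates and 0.27 between the S38A replicates. Between a WT and an S38D library it was 0.17, 0.24, 0.26 and 0.23 there. In that quartile only the pair numbered 1 thus lay below the WT and S38D replicate pairs, and the others lay slightly above them. Genes are not independent replicates, and these values are descriptions with no test.

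**Figure D4:**
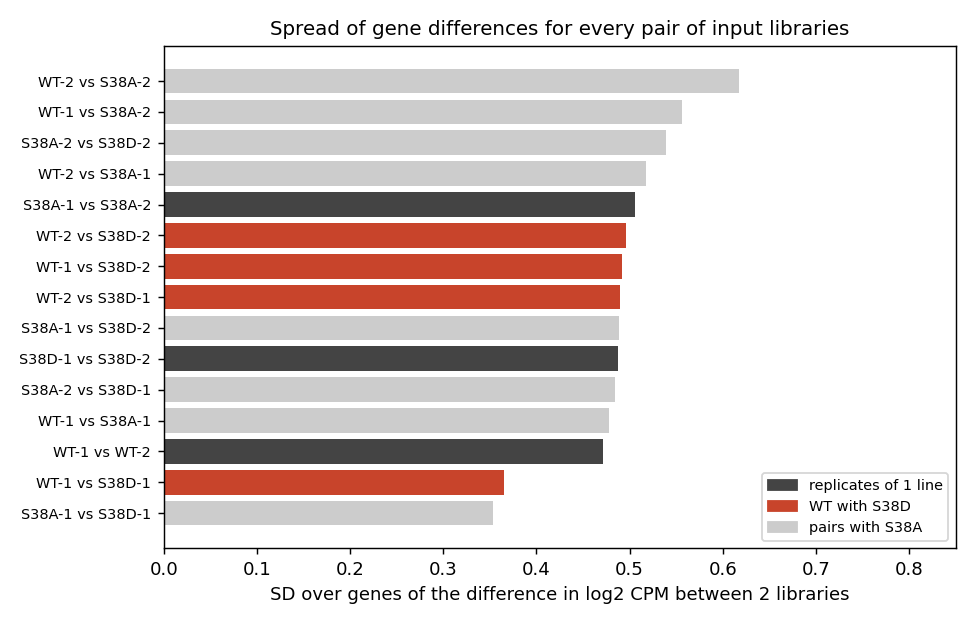
SD over 16728 genes of the difference in log2 CPM (x axis, from 0) for each of the 15 pairs of input libraries (y axis, line and replicate number). Pairs of 1 line are dark, WT with S38D red and pairs with S38A light. The 4 red bars run from 0.36 to 0.50 and the replicate bars from 0.47 to 0.51.

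In the reported fit, fewer genes than a uniform spread of p-values would give had a small p. At an unadjusted p under 0.05 there were 555 genes, 3.32% of those tested, where 5% would be 836. Of these, 388 were higher in S38D, 2.32% of the genes tested, and 167 lower, 0.998%. The total depended on the fit. It lay closer to 5% with only the 4 WT and S38D inputs (788 of 16341 genes) and with voom (748 of 16728). It lay further from 5% with DESeq2 (362 of 16728) and with all 12 libraries (304 of 16920). The excess on the higher side depended on single libraries. Without WT replicate 2 there were 148 higher and 160 lower, without WT replicate 1 523 and 170, and without S38D replicate 1 294 and 520. By a plainer count, both S38D libraries were above both WT libraries for 3037 genes (18.2%) and below for 2635 (15.8%). With 2 libraries against 2, a sizeable share of genes separates this way without any line difference. These shares therefore do not by themselves show line differences. The split depended on scaling: in the fit of all 12 libraries it was 2701 above and 3054 below, and with spike-in scaling 32 above and 329 below. In the IP libraries of the same fractions, the 348 genes of the higher group that were tested there had a median log2 change of 0.40. The 143 of the lower group had one of -0.51. Their medians were 0.50 and -0.62 in input, and the median of all genes in IP was -0.02. These genes were chosen by their input values, and input and IP libraries come from the same fractions of the same lines. Because of the shared fractions, the IP medians are no independent replication.

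The most abundant transcripts had small log2 changes, mostly below 0. The 100 genes of highest mean CPM, all at 590 CPM or above, had a median log2 change of -0.20. Of these, 82 had a value below 0, and 49 had both S38D libraries below both WT libraries, beside 15.8% of all genes. None passed in edgeR, with 1 lower and 0 higher at an unadjusted p under 0.05. By library, their median deviation from each gene's mean over the 6 inputs was 0.12 and 0.29 in WT and 0.01 and 0.04 in S38D, and it was 0.01 and -0.48 in S38A, whose replicates lay far apart. WT replicate 2 weighed most: without it the median change was -0.10, and without WT replicate 1 -0.26. With total counts in place of TMM it was -0.17, against 0.02 for all genes. In the IP libraries the median for these genes was -0.06. The 100 largest genes of each library, ranked in that library alone, took 10.6% and 11.6% of gene counts in WT and 9.88% and 10.0% in S38D.

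Cell cycle markers were the one set of gene groups that could be matched by identifier, since marker pairs distributed with the scran package are given as Ensembl identifiers. G1, S and G2M markers are genes whose mRNA is relatively high in that phase. Of 254 G1, 277 S and 215 G2M markers, 239, 251 and 208 were tested, and 0 passed in edgeR beside the 0.00598% of all genes. At an unadjusted p under 0.05, 5 G1, 12 S and 8 G2M markers were higher in S38D and 1 of each list was lower, beside 2.32% of all genes higher and 0.998% lower.

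Among S and G2M markers the libraries were more often separated upward than over all genes, with small changes. Both S38D libraries were above both WT libraries for 73 S markers (29.1%) and 55 G2M markers (26.4%), against 18.2% of all genes. They were below for 28 (11.2%) and 26 (12.5%), against 15.8%. The median log2 changes were 0.04 for each list, beside -0.01 for all genes. For G1 markers 45 (18.8%) were above and 31 (13.0%) below, with a median of -0.02. The S medians by library were -0.07 and -0.02 in WT, 0.01 and 0.00 in S38D and 0.02 and 0.08 in S38A. The G2M medians were -0.09 and 0.00 in WT, -0.01 and 0.03 in S38D and 0.02 and 0.06 in S38A. In the G2M list the S38D libraries thus overlapped those of WT and those of S38A. WT replicate 1 was the lowest library in both lists, and S38D lay between WT and S38A in the S list. These medians moved with single libraries. Without WT replicate 2 they were 0.08 for S and 0.10 for G2M markers, without WT replicate 1 0.04 and 0.02, without S38D replicate 1 0.06 and 0.05, and without S38D replicate 2 0.02 and 0.01. In IP, S38D versus WT gave medians of 0.02 for S, -0.04 for G2M and -0.01 for G1 markers. With spike-in scaling the input medians were -0.77 and -0.76 for S and G2M, above the -0.83 of all genes. With that scaling 0 S and 0 G2M markers had both S38D libraries above both WT libraries, and 0 and 2 had them below. Few genes separated at all in that fit, 32 above and 329 below of all 16728, so these counts do not set the markers apart.

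**Figure D5:**
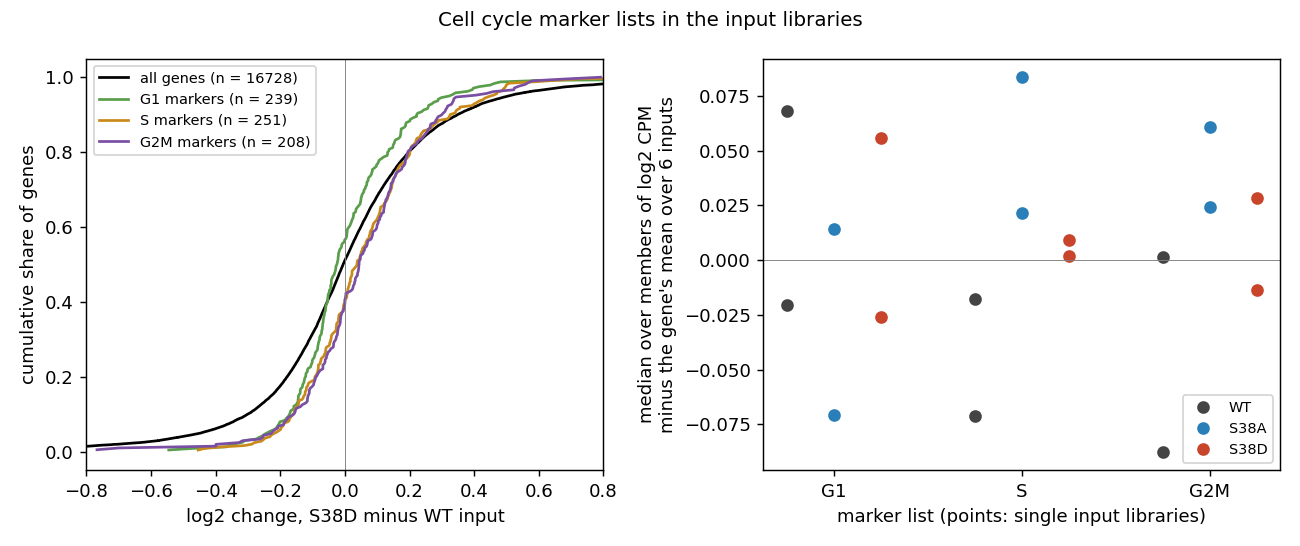
Left, cumulative share of genes (y axis) by log2 change between S38D and WT inputs (x axis) for all 16728 genes and for the G1, S and G2M marker lists. Right, for each list and input library, the median over members of log2 CPM minus the gene's mean over the 6 inputs. The S and G2M curves lie slightly to the right of 0 with medians of 0.04, and the library medians stay within 0.09 of 0.

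Scaling to spike-in RNA instead of TMM moved all values together. The median log2 change of all genes was then -0.83, beside the ERCC shares of 0.116% and 0.484% in the WT libraries. In that fit 0 genes passed in edgeR, and 33 had an unadjusted p under 0.05, 3 of them higher and 30 lower. ENSG00000082805.15 had a log2 change of 1.43 with SE 1.06 (edgeR adjusted p = 0.71), which is 2.26 above the median of all genes. ENSG00000133858.11 had a log2 change of 0.11, or 0.94 above that median. The 100 most abundant genes had a median of -0.98.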

How the data were processed

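The deposited files are the authors' raw read counts, as 1 table for each library, covering 57820 Ensembl identifiers and 92 ERCC spike-in sequences. The submitters' processing notes list STAR 2.4.2a, bcl2fastq 2.16.0.10, DESeq2 and the build hg19. The sources used here do not name the read counter, annotation or strand setting, so overlapping or near-identical genes are uncertain. Spike-in counts stayed out of library sizes.

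The 6 inputs were fitted together with edgeR 4.0.16 in R 4.3.3, using filterByExpr at a minimum count of 10, TMM scaling, glmQLFit and glmQLFTest for S38D minus WT, and Benjamini-Hochberg adjustment across all genes. The biological coefficient of variation was 15.7%. A prior count of 2 went into log2 CPM. SE is the size of the log2 change over the square root of F. The fit was run on simulated counts drawn with a common spread for all genes, which does not show how it performs on these data.

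The members and lists were chosen with earlier results of these data known. Genes were named if called, then by lowest p among those averaging 5 CPM or more whose groups did not overlap, limited to 2 identifiers a direction for want of symbols. The 23 lists fixed by symbol matched 0 identifiers. Cell cycle lists came from scran 1.30.0, from genes in 20 or more marker pairs of a phase that lead their pair in a share of 0.8 or more. They and the 100 most abundant genes were chosen after seeing the data. Alternatives included DESeq2 1.42.0 and voom in limma 3.58.1.

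The labels do not say whether replicates were separate cultures, so p-values may measure technical spread. Replicates differed by more than sampling noise, with chi-square of 6.92 per degree of freedom in WT, 7.62 in S38D and 12.6 in S38A.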

Additional observations from a re-analysis of the deposited data

How the results depend on the processing

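The number of genes called for S38D versus WT inputs was 1, and it was also 1 with RLE size factors, total counts, voom, mean CPM of at least 10 and all 12 libraries, each time ENSG00000082805.15. It was 10 with DESeq2, 87 with no filter on low counts, and 0 with spike-in scaling, with only the 4 WT and S38D libraries and with the replicate block. In edgeR these 3 fits had 33, 788 and 686 genes at an unadjusted p under 0.05. With 1 input library left out it was 0 to 14: 10 without WT replicate 1, 14 without S38D replicate 1, 1 without S38D replicate 2, and 0 without WT replicate 2 or either S38A library. The cause was not tested. Where 1 library of a line was left out, the lone library is assumed to vary like the other lines.

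Same-numbered WT and S38D libraries deviated together with a correlation of 0.22 across genes, against -0.07 for WT and S38A and 0.12 for S38D and S38A. The labels do not say that the numbers mark a shared batch, so they were not taken as pairs. For IP S38D versus WT, in alternatives chosen after seeing the data, the count was 32 with no filter, 0 with only the 4 libraries, and between 0 and 40 on leaving out single libraries (8 without WT replicate 1, 40 without WT replicate 2, 3 without S38D replicate 1 and 0 without S38D replicate 2). Among single-gene values under an alternative, the call was as reported for 62, gained for 6 and lost for 10, and 0 reversed. This pools the called gene with the 3 that did not pass, many of whose values simply stayed uncalled. All 10 losses were of ENSG00000082805.15, and the 6 gains were of the other 3. In the inputs the called gene passed in 10 of the 15 settings without spike-in scaling. With 2 libraries a line, a median SE of 0.21 on the log2 scale limits what can be seen.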
